A study of Danio rerio with 25 samples.

Results

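The 155 genes described here had a higher level in each of 5 cdkn1a crispant libraries than in any of 5 WT libraries of zebrafish larvae. They were chosen by their values in these libraries. The mean over the 10 libraries was at least 1 CPM (counts of a gene per 1000000 counts of its library), the lowest crispant CPM was above the highest WT CPM, and the crispant mean was at least 1.3 times the WT mean. The rule kept 0.761% of the 20358 genes at or above 1 CPM, out of 32520 in the table. The same rule turned around, with crispants lower, kept 278 genes or 1.37%. Because this contrast chose the genes, their crispant and WT values are given as a description, without a test, and tests are given for a separate course of larvae exposed to dexamethasone (DEX).

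cdkn1a encodes p21, an inhibitor of cyclin-dependent kinases that acts downstream of p53 and restrains entry into DNA synthesis. Cells that pass this point switch on genes for DNA replication and then, in G2 and mitosis, genes for the mitotic cyclins, the kinases they activate, the kinetochore, the spindle and cytokinesis. In the larval fish the tissues differ widely in how many of their cells still divide, and the level of these genes in a whole larva reflects all of them.

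The series holds 25 RNA-seq libraries of whole larvae. Control (WT) and sgCdkn1a each had 5 libraries. The sgCdkn1a larvae were crispants, that is, mosaic animals injected at the one-cell stage with Cas9 protein and a pool of guides against exon 2 of cdkn1a, so each animal mixed edited and unedited cells. The titles place all 5 in 1 group, although the number in their treatment label runs on from sgCdkn1a to sgCdkn5a. DEX, a synthetic glucocorticoid, was given in a course with 3 libraries on each of day 3 to day 7 (D3 to D7), in a model line in which a medaka sp7 promoter marks osteoblasts with nuclear GFP. By the methods, a D3 larva was 3 days post-fertilization, a D7 larva 7, and DEX exposure started on day 3. D3 is therefore read here as the start of exposure, not as 3 days of DEX. Some figure legends instead place the same days after DEX was added, and the hours in DEX before the D3 collection are not stated. No DEX was named for the WT and crispant libraries, and their labels gave no day of collection, while the methods list several. Untreated larvae of the same days were not analysed here, and a difference between days also contains larval development. The labels do not say whether libraries of a group came from separate clutches, so p-values measure the spread between these libraries only. In bulk RNA from whole larvae, fewer cells of a type and less RNA per cell cannot be told apart. WT totals were 35527879 to 38467088 counts, crispant totals 30330699 to 38352735 and DEX totals 13685297 to 21812411. Of 28 marker genes of muscle, blood, pancreas, liver, gut, nervous system, lens, retina, epidermis, cartilage and myeloid cells that had a value, all had counts in each of the 10 WT and crispant libraries.

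The WT and crispant libraries fell into 2 sets. In the header of the table the numbering of the crispants restarts after the third library. WT libraries 1 to 3 and crispant libraries 1 to 3 are called the first set here, WT 4 and 5 and crispants 4 and 5 the second (crispant numbers give the order in the table only). The WT numbering runs from 1 to 5 with no restart. Which WT libraries belong with which crispants is therefore inferred from the order in the table and is not labelled. All values by set and the fit with the set as a block rest on this match. The SD over genes of the difference in log2(CPM + 1) between WT libraries was 0.230 to 0.314 within a set and 0.560 to 0.631 between sets. For crispants it was 0.231 to 0.242 within and 0.508 to 0.539 between sets. Ratios of crispant to WT are therefore given for each set beside the pooled ratio.

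The targeted gene differed between the sets by more than between the groups. cdkn1a (ENSDARG00000076554) was at 17.8, 18.0 and 20.5 CPM in WT 1 to 3 and at 3.69 and 4.70 CPM in WT 4 and 5. Its level was 8.44, 9.98 and 8.18 CPM in crispants 1 to 3 and 1.68 and 1.72 CPM in crispants 4 and 5. Within each set every crispant library was below every WT library, with ratios of 0.47 and 0.41, but WT 4 and 5 were below crispants 1 to 3. In edgeR's quasi-likelihood test over all 10 libraries the log2 fold change was -1.12 (SE 0.62, edgeR adjusted p = 0.529). With the set as a block it was -1.16 (SE 0.12, edgeR adjusted p = 0.000101), in a fit that called 5.84% of all genes, 1.75% higher and 4.09% lower in crispants.

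The ratio of crispant to WT mean CPM over the 155 members ranged from 1.303 to 3.35 with a median of 1.53, beside a median of 0.990 over all genes at or above 1 CPM. In 87 members it was at least 1.5 and in 21 at least 2. The gap between the groups was narrow: the lowest crispant was a median of 1.08 times the highest WT library, at least 1.2 times in 23 members and at least 1.5 times in 2. The members were lowly expressed genes for the most part. Their median mean level was 5.23 CPM, beside 12.3 CPM over all genes at or above 1 CPM, and 120 of them were under 10 CPM. A symbol was given for 143 members, and 49 of these symbols (34.3%) are names of clones or cDNAs with no described gene, beside 12.6% over all genes at or above 1 CPM.

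The ratios of the members were not alike in the sets. The median ratio was 1.57 and 1.42 in the first and second set, 101 of the 155 members had the higher ratio in the first set, and 81 had a ratio of at least 1.3 in each of the sets. Across members the log2 ratios of the 2 sets had a Pearson r of 0.09, a description over 155 genes that share the same libraries. The rule chose the members on these same values, through a pooled mean in which the first set has more libraries. The medians, the count of 101 and r are therefore partly fixed by the choice. The rule applied to the first set alone kept 1944 genes and to the second alone 1489. With 3 or 2 libraries a group fewer libraries must be separated, so these counts are not comparable with the 155. Their shares of all genes are not given here.

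**Figure D1:**
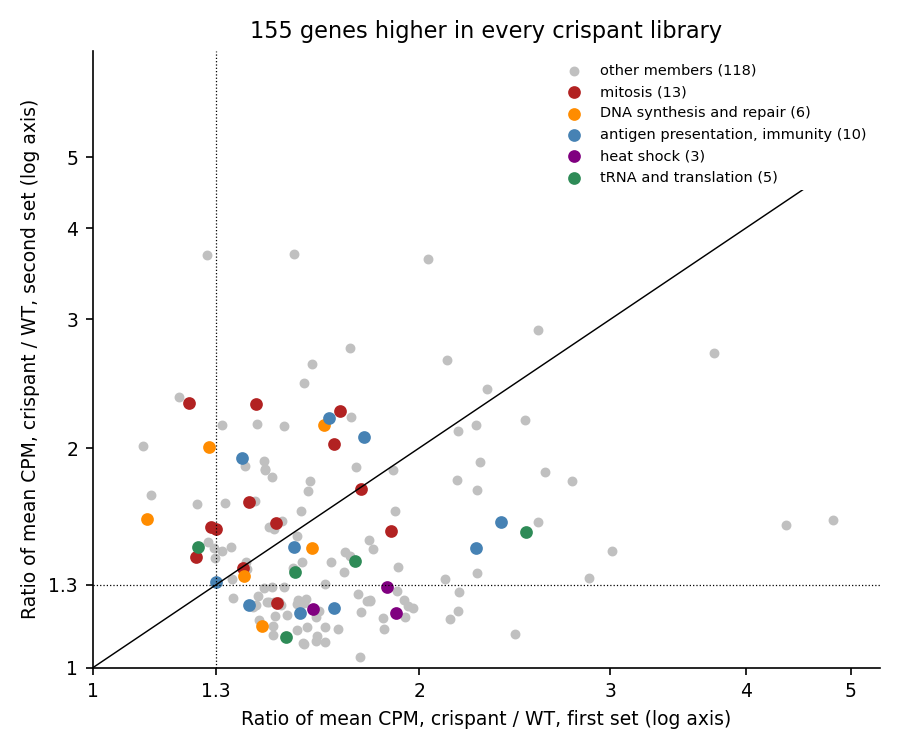
Each point is 1 of the 155 members, with the ratio of crispant to WT mean CPM in the first set (3 libraries a group, log x axis) and in the second set (2 libraries a group, log y axis), coloured by the role of the gene. Dotted lines mark a ratio of 1.3 and the diagonal marks equal ratios; 81 members lie above 1.3 on both axes and Pearson's r over the points is 0.09.

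To describe the members by what they do, 37 with a well-known function were put into 5 groups by hand after the members were known, so the size of a group is no evidence that it is over-represented. The largest group, with 13 genes, holds regulators and structural parts of mitosis. It includes the kinase of mitotic entry (CDK1), its cyclins (CCNB1, ccnb3), the phosphatase that activates it (cdc25b), polo-like kinase (plk1), the inhibitor of the anaphase-promoting complex Emi1 (fbxo5), the chromosomal passenger subunit borealin (cdca8), centromere and kinetochore genes (mis18a, bod1, CENPF), an importin that carries cargo to the nucleus (KPNA2) and genes of the central spindle and cytokinesis (PRC1, ECT2). Their ratios ranged from 1.32 to 1.91, with medians of 1.42 (first set) and 1.58 (second set).

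CDK1 (ENSDARG00000087554) was at 4.78, 5.38, 4.67, 5.93 and 5.26 CPM in WT 1 to 5 and at 7.99, 10.2, 6.59, 9.50 and 13.2 CPM in crispants 1 to 5. Its mean was 5.204 ± 0.51 CPM in WT and 9.48 ± 2.48 CPM in crispants (SD, n = 5), a ratio of 1.82. All crispants were above all WT libraries, and crispant 5 stood highest. The mitotic cyclin CCNB1 (ENSDARG00000051923) was nearly level in WT, at 4.23, 4.58, 5.03, 4.34 and 4.45 CPM. In crispants it was at 6.50, 7.18, 5.90, 7.44 and 12.8 CPM, so that its mean of 7.95 ± 2.75 CPM (SD, n = 5) rests in part on crispant 5. KPNA2 (ENSDARG00000038066) was at 12.8, 12.04, 11.7, 10.3 and 7.91 CPM in WT and at 14.5, 14.9, 15.5, 19.5 and 22.4 CPM in crispants. Its ratio was 1.23 and 2.31 in the first and second set, the widest difference between sets in this group.

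cdca8 (ENSDARG00000043137), whose protein helps to correct faulty spindle attachments, stood nearer to the first set. It was at 2.30, 2.496, 2.89, 3.09 and 2.34 CPM in WT and at 5.25, 4.24, 4.98, 3.53 and 4.82 CPM in crispants, with ratios of 1.88 and 1.54 in the sets. PRC1 (ENSDARG00000005993), which bundles microtubules of the central spindle, had the highest pooled ratio of the group, 1.91, with 2.19, 2.29, 2.17, 2.76 and 1.58 CPM in WT and 3.76, 3.13, 4.35, 4.34 and 5.397 CPM in crispants. A second identifier carries the name PRC1, so reads shared by the copies cannot be assigned with certainty. plk1 (ENSDARG00000058471) and CENPF (ENSDARG00000055133) had a ratio of 1.39 each, with 10.4 ± 0.93 against 14.5 ± 1.996 CPM and 9.85 ± 0.74 against 13.7 ± 2.35 CPM (SD, n = 5).

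By the rule, every member had a level above the WT mean of the same set in each crispant. The size of this relative level varied between crispants. The median over the 13 mitotic members was 1.41, 1.41 and 1.28 in crispants 1 to 3 and 1.298 and 1.82 in crispants 4 and 5. By CPM, not taken relative to WT, crispant 5 was the highest crispant in 9 of the 13, beside 41 of all 155 members. Other genes of mitosis were then taken from a list of 63 textbook names, written after the members were seen, of which 53 had a single identifier and a mean of at least 1 CPM. Of the 53, 12 are members, whose pooled ratio is at least 1.3 by the rule. The other 41 all had a pooled ratio above 1, beside 47.3% of all genes at or above 1 CPM, with a median of 1.27.

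The 41 listed mitosis genes that are not members separated the sets. In the first set their median ratio was 1.01 and 23 of 41 were above 1, beside 47.3% of all genes at or above 1 CPM. In the second set the median was 1.70 and 41 of 41 were above 1, beside 49.4% of all genes. Among these were ccna2 (cyclin A, 0.98 and 2.29 in the first and second set), top2a (topoisomerase II, 1.06 and 2.03), aurkb (aurora kinase B, 0.93 and 1.92) and mki67 (the Ki-67 antigen of dividing cells, 1.02 and 1.61). Their medians in crispants 1, 2 and 3 were 1.01, 1.04 and 0.97 times the WT mean, and in crispants 4 and 5 they were 1.48 and 1.90. The WT libraries of the second set were also lower in these genes than those of the first, with a median ratio of second to first set of 0.86, and 9 of 41 above 1. Not all of them were near 1 in the first set: zwilch had a ratio of 1.53 there, melk one of 1.36 and cdc20 one of 1.29. The rule itself uses crispants 1 to 3, so a lower first-set ratio in genes it left out is partly fixed by the choice of members. The difference between the sets was not tested.

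**Figure D2:**
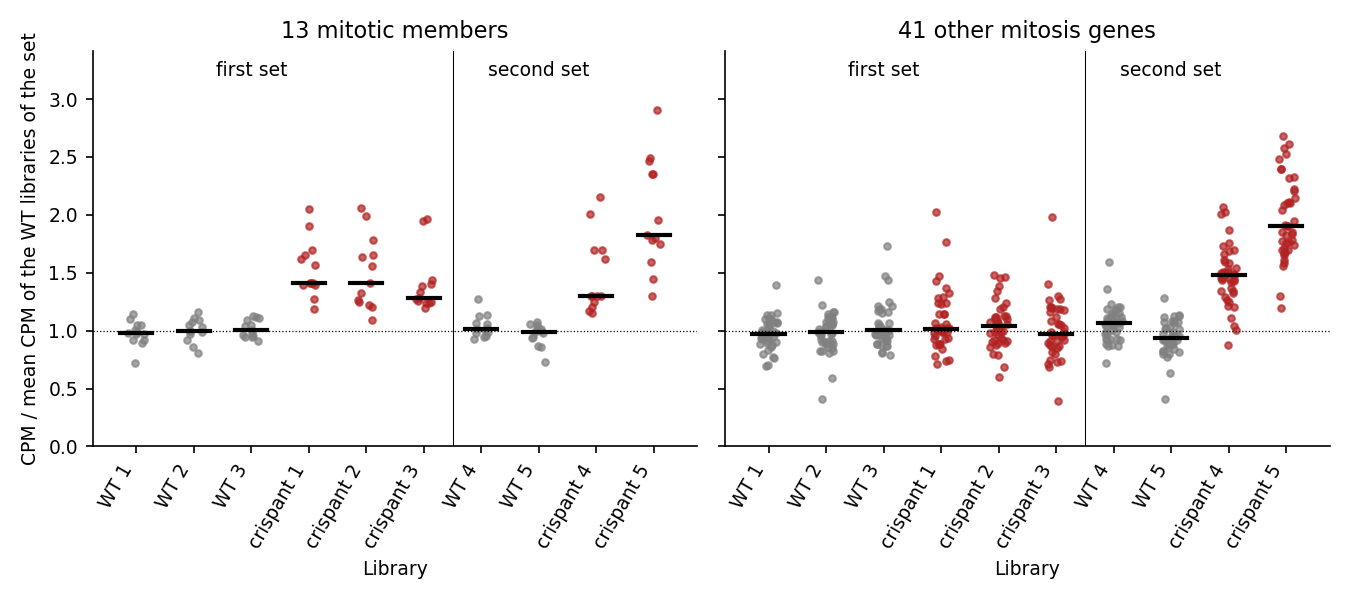
Points are genes and black bars medians of CPM divided by the mean CPM of the WT libraries of the same set, for the 13 mitotic members (left) and the 41 other genes of the mitosis list at or above 1 CPM (right), in each WT (grey) and crispant (red) library. The other genes have medians of 0.97 to 1.04 in crispants 1 to 3 and of 1.48 and 1.90 in crispants 4 and 5.

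A further 6 members serve DNA synthesis, repair and the supply of histones. NEIL3 (ENSDARG00000020079), a DNA glycosylase that removes oxidized bases, had one of the 2 widest gaps between the groups. It was at 1.77, 1.90, 1.89, 1.69 and 1.89 CPM in WT and at 2.99, 3.05, 3.03, 3.61 and 4.09 CPM in crispants, a ratio of 1.84. NASP (ENSDARG00000039208), a histone chaperone, was at 19.3, 18.2, 18.0, 19.7 and 18.8 CPM in WT and at 26.8, 23.4, 26.4, 21.7 and 29.9 CPM in crispants, a ratio of 1.36 and close to it in both sets.

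RRM2 (ENSDARG00000020711), the small subunit of the ribonucleotide reductase that makes deoxyribonucleotides, lay just inside the rule with a ratio of 1.305. It was at 17.0, 15.6, 16.8, 16.4 and 14.5 CPM in WT and at 18.2, 19.0, 18.2, 18.1 and 31.2 CPM in crispants. Crispant 5 alone set its mean apart, and the ratio in the first set was 1.12. BRIP1 (a helicase of DNA repair), rhno1 (a partner of the ATR checkpoint kinase) and polm (DNA polymerase mu) had ratios of 1.31, 1.54 and 1.53. In rhno1 the lowest crispant and the highest WT library were both at 1.49 CPM, and it is a member only by the unrounded values.

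The immune group holds 10 members. The genes mhc2d4b and mhc1haa encode histocompatibility molecules, PSME2 a subunit of the proteasome activator that shapes peptides for them, IRF5 an interferon regulatory factor, TNFSF10 the death ligand TRAIL, serping1 the C1 inhibitor of complement, TNFAIP8L2 a damper of immune signalling and itgae.1 an integrin alpha chain. The group also takes in gig2o and btr25, from families of the antiviral response in fish. Their ratios were 1.303 to 2.08, with medians of 1.602 (first set) and 1.46 (second set).

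The class II gene mhc2d4b (ENSDARG00000101030) was at 1.53, 1.51, 1.19, 1.42 and 1.07 CPM in WT and at 2.83, 3.22, 4.02, 2.23 and 1.72 CPM in crispants. PSME2 (ENSDARG00000033144) was at 4.33, 3.61, 4.42, 3.69 and 3.800 CPM in WT and at 5.99, 5.10, 5.90, 7.30 and 7.22 CPM in crispants. The first was farther above WT in the first set, with a ratio of 2.38 against 1.59, and the second in the second set, with 1.94 against 1.37. IRF5 (ENSDARG00000045681) had the lowest ratio of all members, 1.303, yet its groups were tight, with 5.203, 4.97, 5.45, 5.27 and 5.66 CPM in WT and 6.72, 6.43, 7.12, 6.97 and 7.35 CPM in crispants.

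Of 31 genes of antigen presentation in a list also written after the members were seen, 18 had a value of at least 1 CPM. Of these, 3 are members. Among the other 15, the pooled ratio was above 1 in 14, beside 47.3% of all genes at or above 1 CPM, with medians of 1.31 (first set) and 1.15 (second set). The interferon list, which holds isg15 and irf7, had 5 genes at or above 1 CPM and 3 of them above 1. The single macrophage and neutrophil markers with a value, marco and lyz, were at 4.81 to 10.98 and 2.001 to 5.74 CPM in WT and at 4.71 to 9.42 and 2.71 to 5.24 CPM in crispants. The groups overlapped in both, and the part of blood cells in the immune members was not tested.

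The heat shock group differed from the mitotic one in its set. HSP90AA1 (ENSDARG00000024746), a cytosolic HSP90 chaperone, was at 59.0, 61.0, 56.6, 65.0 and 59.6 CPM in WT. In crispants it was at 91.8, 92.0, 97.99, 75.3 and 74.9 CPM, with the 3 crispants of the first set above both of the second. With HSPH1, a nucleotide exchange factor for HSP70, and fkbpl, an HSP90 partner, its group had medians of 1.87 (first set) and 1.21 (second set), and none of the 3 genes reached a ratio of 1.3 in both. The 7 listed heat shock genes with a value that are not members had a median ratio of 1.38 and 0.86 in the first and second set. First-set ratios were above 1 in 4 of these 7 genes and second-set ratios in 2. The highest first-set ratio, 2.82, was that of dnajb1b, an HSP40 chaperone. dnajb1b was at 6.42, 7.10 and 6.70 CPM in WT 1 to 3 and 18.9, 20.3 and 17.6 CPM in crispants 1 to 3. It was at 8.46 and 9.88 CPM in WT 4 and 5 and 8.93 and 8.03 CPM in crispants 4 and 5. The second-set ratio was the higher one in hsp90aa1.1 (1.66 against 0.77), hspb1 (1.27 against 0.98) and hsf1 (0.86 against 0.78).

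Of the other members with a known role, 5 belong to RNA modification and translation: the tRNA methyltransferases TRMT2B and TRMT10A, SEPSECS, which makes selenocysteine on its tRNA, the mitochondrial ribosome-recycling factor GFM2 and, set beside them, the mitochondrial iron-sulfur cluster factor IBA57. Their ratios were 1.32 to 2.09. TRMT10A (ENSDARG00000036678) was at 2.77, 2.89, 2.95, 3.50 and 2.79 CPM in WT and at 4.55, 5.18, 5.28, 4.37 and 4.43 CPM in crispants. Its lowest crispant was 1.25 times its highest WT library, a wider gap than in most members.

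Among members with a symbol, the 12 highest ratios fell mostly on clone names at low levels. si:ch211-101l18.8 (ENSDARG00000096639) had the highest ratio of all, 3.35, from 0.977, 0.728, 0.111, 0.573 and 0.507 CPM in WT and 2.39, 2.19, 2.21, 1.303 and 1.62 CPM in crispants. si:dkey-187j14.4 (ENSDARG00000053761) had the widest gap, with 1.88, 2.13, 2.03, 1.45 and 1.94 CPM in WT and 4.203, 4.05, 4.55, 4.97 and 3.989 CPM in crispants, and its ratio of 2.31 held in both sets (2.12 and 2.64). At such levels the sampling of reads adds to the spread: the lowest count of any member in a WT library was 4.

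si:ch211-209l18.2, si:dkey-197a4.1, si:dkey-73p2.4, zgc:154125, si:ch211-119d14.2 and si:ch211-196h24.2 had ratios of 2.84, 2.35, 2.26, 2.22, 2.22 and 2.21, and another clone-named gene (ENSDARG00000040921) one of 2.735, each with a WT mean under 1.3 CPM. Described genes among the 12 were bmb (brambleberry, needed in zebrafish for nuclear envelopes to fuse after fertilization), ASB14 (an ankyrin repeat and SOCS box protein) and CNOT7 (a deadenylase of messenger RNA). bmb (ENSDARG00000096603) was at 0.343, 0.910, 0.584, 0.819 and 0.338 CPM in WT and at 1.37, 1.39, 1.85, 1.28 and 1.25 CPM in crispants. ASB14 (ENSDARG00000087741) was at 1.66, 2.44, 2.25, 3.30 and 2.84 CPM in WT and at 7.67, 6.57, 4.91, 3.989 and 4.90 CPM in crispants. CNOT7 (ENSDARG00000032116) was at 1.40, 2.24, 2.28, 2.16 and 2.93 CPM in WT and at 5.29, 4.05, 7.62, 3.15 and 3.60 CPM in crispants. The last 2 were farther from WT in the first set, with ratios of 3.01 and 2.87 against 1.45 and 1.33.

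Only 3 members had a mean of 100 CPM or more. krt17 (ENSDARG00000094041), a type I keratin, was at 743, 720, 762, 658 and 915 CPM in WT and at 985, 993, 948, 1146 and 1127 CPM in crispants, a ratio of 1.37. The epidermal keratins krt4 and krt5, which are not members, had pooled ratios of 0.98 and 1.02. In the first and second set the ratio was 0.88 and 1.17 for krt4 and 0.94 and 1.14 for krt5. opn1sw2 (ENSDARG00000017274), the opsin of blue-sensitive cones, was at 255, 255, 279, 273 and 317 CPM in WT and at 459, 453, 437, 398 and 452 CPM in crispants. Its ratio of 1.59 stood beside 1.24 for gnat1, the rod transducin, and its ratios of 1.71 and 1.44 by set beside 0.96 and 1.36 for gnat2, the cone transducin. The summed level of both transducins was 417 to 524 CPM in WT and 515 to 601 CPM in crispants. The part of photoreceptor number in the opsin's ratio was not tested. safb (ENSDARG00000020467), a chromatin scaffold protein, was at 120, 131, 126, 168 and 159 CPM in WT and at 193, 209, 205, 175 and 180 CPM in crispants, with a ratio of 1.61 and 1.09 in the first and second set.

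Next in level came HSP90AA1, si:ch211-163m17.5, F10 (coagulation factor X), si:dkey-7c18.24 and XDH (xanthine dehydrogenase, which makes uric acid). F10 (ENSDARG00000088581) was at 32.0, 31.9, 30.3, 36.4 and 45.6 CPM in WT and at 50.7, 58.1, 56.5, 48.7 and 54.9 CPM in crispants. XDH (ENSDARG00000055240) was at 33.3, 36.5, 30.7, 32.4 and 37.5 CPM in WT and at 48.0, 48.3, 53.1, 44.4 and 41.7 CPM in crispants. In both, WT 5 was the highest WT library. si:ch211-163m17.5 (ENSDARG00000105465) owed its membership to the first set, with a ratio of 1.565 there and 1.08 in the second.

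The edge of the rule was crowded. Nearest above the minimum ratio were IRF5 (1.303), RRM2 (1.305) and gkup (1.306), and just below it were prkag3b (1.2998), si:ch211-180a12.2 (1.297) and smco4 (1.296). By the gap between groups, ORAI1 was the member nearest to overlap, with a lowest crispant of 8.502 CPM and a highest WT of 8.500 CPM. Just outside was zgc:153372, with 7.14 against 7.16 CPM.

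Over the DEX days, which the rule did not use, 152 of the 155 members passed the filter on low counts and were tested among 21750 genes by the edgeR quasi-likelihood test, with p-values adjusted over all of them after Benjamini and Hochberg. The other 3 (si:dkey-197a4.1, si:ch211-196h24.2 and ENSDARG00000040921) did not pass. Between D3 and D7, 40 members fell (26.3%) and 15 rose (9.87%), beside 13.5% and 11.8% of all genes tested. The median log2 fold change was -0.07 over the members and 0.06 over all genes. On any day 40 members differed (26.3%), beside 17% of all genes.

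Between successive days the test called 0 members, beside 0.189%, 0.0092%, 0% and 0% of all genes for D4 against D3, D5 against D4, D6 against D5 and D7 against D6. At an unadjusted p below 0.05 there were 13, 13, 18 and 6 members, and DESeq2 called 5, 3, 0 and 0. The shares of all genes under these settings are not given here, so these counts are no result about the members. The steps were of unequal size: si:dkey-7c18.24, a clone-named member, had a log2 fold change of 2.62 from D3 to D4 (edgeR adjusted p = 0.176) and of 2.81 from D3 to D7. The mean level was highest on D3 in 66 members (43.4%, beside 34.2% of all genes tested) and on D7 in 33 (21.7%, beside 21.6%).

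**Figure D3:**
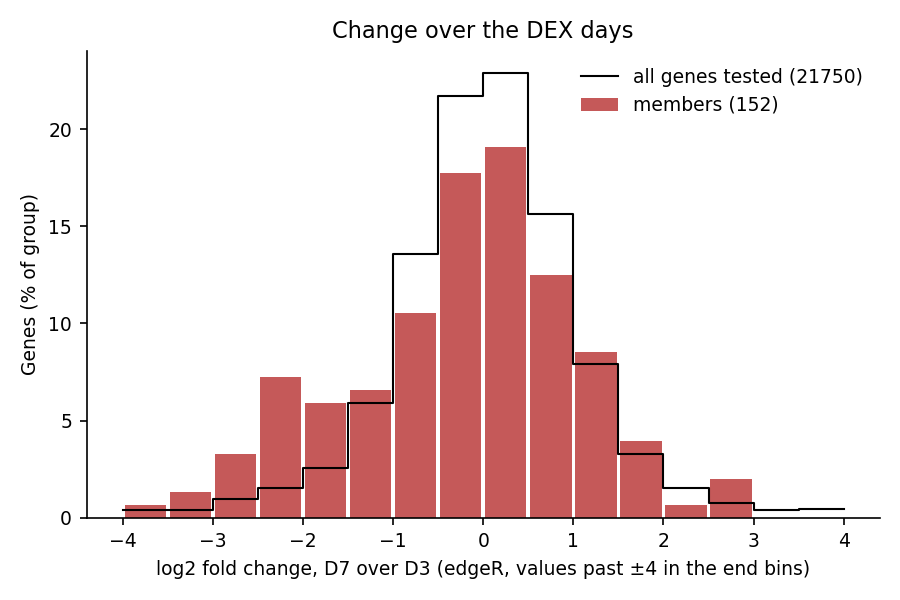
Bars show the share of the 152 tested members and the black line that of all 21750 genes tested, by the edgeR log2 fold change from D3 to D7 of the DEX course in steps of 0.5. Members exceed all genes in each step between -4 and -1, and 12 of the 13 mitotic members lie between -3.5 and -1.5. Members also exceed all genes between 1 and 2 (8.55% against 7.90% and 3.95% against 3.29%) and between 2.5 and 3 (1.97% against 0.76%).

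The 3 libraries of a day differed. They carry the letters a, b and c, read here as replicates 1 to 3. The c library was below both the a and the b library on each of the 5 days in 20.1% of all genes tested and above both in 7.12%. For members these shares were 12.5% (19 genes) and 5.26% (8 genes). Results are therefore also given without the c libraries, an alternative added after the values were seen. Without them 52 of 148 members fell (35.1%) and 32 rose (21.6%), beside 23.7% and 27.4% of all genes (51% in either direction).

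Of the 40 members that fell, 12 are mitotic. Of the 13 mitotic members, 12 fell between D3 and D7, all but bod1 (log2 fold change -0.26, adjusted p = 0.410), and each of the 13 was highest on D3. The median log2 fold change was -2.47. CDK1 was at 66.7, 72.0 and 47.7 CPM in the a, b and c libraries of D3 and at 6.86, 7.01 and 15.01 CPM on D7, with no overlap (log2 fold change -2.47, SE 0.35, edgeR adjusted p = 0.0003). CCNB1 went from 46.8, 56.3 and 45.5 CPM to 3.18, 3.87 and 10.2 CPM (-2.87, SE 0.45, edgeR adjusted p = 0.00057). In both genes the c library of D7 was the highest of its day.

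The same held for KPNA2, which was at 101, 108 and 103 CPM on D3 and at 4.76, 3.800 and 23.1 CPM on D7 (log2 fold change -3.02, SE 0.66, edgeR adjusted p = 0.00492). Without the c libraries its log2 fold change was -4.49. Within the letters, the median log2 ratio of D7 to D3 over the 13 genes was -3.28 in a, -3.34 in b and -1.92 in c, with 13 of 13 below 0 in each. CENPF (-2.95, edgeR adjusted p = 7.8e-05) and plk1 (-2.76, edgeR adjusted p = 0.000467) were also among the 6 largest falls of members with a symbol. ENSDARG00000099194, which has no symbol, fell too (-3.25, edgeR adjusted p = 0.00143). The fall was not confined to members: of the 43 listed mitosis genes outside them, 42 had a log2 fold change below 0. Their median was -2.73, beside one of 0.06 over all genes tested.

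**Figure D4:**
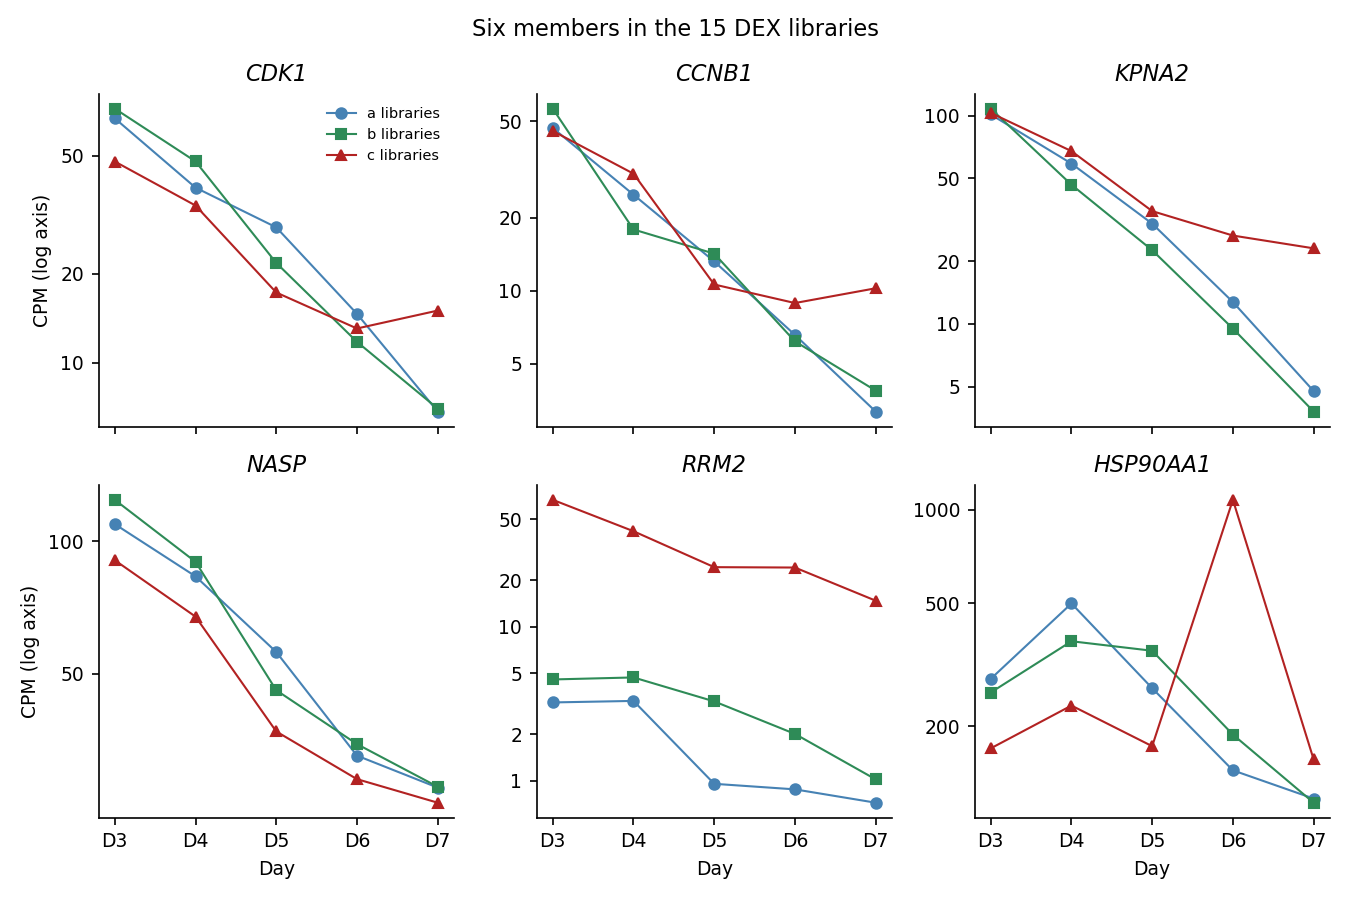
CPM on a log axis in each of the 15 DEX libraries from D3 to D7 for 6 members, with the a (blue circles), b (green squares) and c (red triangles) library of each day joined by lines. CDK1, CCNB1, KPNA2 and NASP fall from D3 in all 3 letters, the c line of RRM2 lies above both others on each day, and HSP90AA1 has its highest value, 1078 CPM, in the c library of D6.

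In the DNA synthesis group 4 of 6 fell. NASP was at 109, 124 and 90.6 CPM on D3 and at 27.6, 27.7 and 25.5 CPM on D7 (log2 fold change -1.86, SE 0.18, edgeR adjusted p = 3.06e-05), and NEIL3 was at 10.7, 9.23 and 8.43 CPM and then at 1.08, 1.17 and 2.84 CPM (-2.24, edgeR adjusted p = 0.00107). BRIP1 and rhno1 fell with -1.99 and -1.44. RRM2 differed by letter. It was at 3.23 and 4.55 CPM in the a and b libraries of D3 but at 66.6 CPM in the c library, and at 0.722, 1.02 and 14.8 CPM on D7. All 5 c libraries were above all 10 others, as in 4 members and 441 of all genes tested. Its log2 fold change from D3 to D7 was -1.90 (SE 1.69, edgeR adjusted p = 0.449) with all libraries and -2.04 (SE 0.53, edgeR adjusted p = 0.00562) without the c libraries. The c libraries of D3 and D7 set the first of these: it was 0.86 without that of D3 and -4.78 without that of D7, with no call in either. Within the letters, 5, 5 and 6 of the 6 DNA synthesis members were lower on D7 than on D3 in a, b and c, RRM2 in all 3, and polm was the exception in a and b.

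The 136 members outside the mitotic and DNA synthesis groups gave 24 falls and 15 rises among 133 tested, 18% and 11.3%, against the 13.5% and 11.8% of all genes. Without the c libraries they gave 35 falls and 32 rises among 129 tested, 27.1% and 24.8%, beside 23.7% and 27.4% of all genes. ASB15 (ENSDARG00000045633), an ankyrin repeat and SOCS box gene like ASB14, had the largest fall of any member, from 19.3, 16.9 and 13.9 CPM on D3 to 1.59, 1.096 and 0.666 CPM on D7 (log2 fold change -3.78, SE 0.36, edgeR adjusted p = 2.93e-05). ASB14 fell too, from 7.71, 7.88 and 8.65 CPM to 1.08, 0.877 and 2.24 CPM (-2.31, SE 0.49, edgeR adjusted p = 0.00392). olig4, a bHLH transcription factor gene of the Olig family, fell by 2.82 on the log2 scale (edgeR adjusted p = 0.00413). bmb fell by 1.94 (edgeR adjusted p = 0.0215), although no day-to-day step and no test over all days passed, and its call was lost without the b library of D3 (-1.76) or the a (-1.61) or b (-1.601) library of D7.

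Among members with a symbol, the rises were led by si:dkey-7c18.24 (ENSDARG00000041433), which was at 3.23, 5.00 and 5.65 CPM on D3 and at 37.5, 45.6 and 10.6 CPM on D7 (log2 fold change 2.81, SE 0.64, edgeR adjusted p = 0.00646). Its mean was highest on D6, at 69.0 CPM, and its c library was the lowest of its day from D4 on. acy3.1 (ENSDARG00000093003), an aminoacylase gene, was at 1.32, 1.22 and 2.72 CPM on D3 and at 6.21, 8.11 and 6.90 CPM on D7 (2.13, SE 0.37, edgeR adjusted p = 0.00115). krt17 rose from 160, 208 and 447 CPM to 614, 472 and 671 CPM (1.25, SE 0.36, edgeR adjusted p = 0.0217), with the c library of D3 above both others of that day.

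si:dkey-73p2.4, si:ch211-191a16.3, si:ch73-329n5.6 and si:dkey-279j5.1 completed the 6 largest rises with a symbol, with log2 fold changes of 1.95, 1.84, 1.597 and 1.51 (edgeR adjusted p = 0.0248, 0.0128, 0.0298 and 0.0425). Their levels on D3 were low, with means of 0.189, 0.801, 1.97 and 0.472 CPM. Single libraries decided several of these calls. si:dkey-279j5.1 no longer passed without the c libraries (1.17, edgeR adjusted p = 0.0642), nor without any 1 library of D3, the b or c library of D7, or several of the days between. The call of si:dkey-73p2.4 was lost without the b (1.76) or c (1.69) library of D3 or the b (1.98) or c (1.87) library of D7. That of si:ch73-329n5.6 was lost without any 1 library of D3 or the a or c library of D7 (1.401 to 1.75), and that of si:ch211-191a16.3 without the b library of D3 (1.78). krt17 lost its call without the a (0.95) or b (1.09) library of D3 or the c library of D7 (1.07).

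The immune members had no common course: gig2o rose (0.99, edgeR adjusted p = 0.0380), serping1 fell (-0.66, edgeR adjusted p = 0.0328) and the other 8 passed no test between D3 and D7. Without the c libraries gig2o (1.21, edgeR adjusted p = 0.0118) and PSME2 (1.465, edgeR adjusted p = 0.0039) rose, TNFSF10 fell (-0.64, edgeR adjusted p = 0.0299) and serping1 no longer passed (-0.46, edgeR adjusted p = 0.0996). The heat shock members gave 0 calls with all libraries. HSP90AA1 was at 144 and 188 CPM in the a and b libraries of D6 and at 1078 CPM in the c library, and HSPH1 at 3.66, 5.01 and 21.9 CPM there. Without the c libraries HSP90AA1 had a log2 fold change of -1.11 from D3 to D7 (edgeR adjusted p = 0.000156), against -0.69 (edgeR adjusted p = 0.442) with them. SEPSECS rose by a log2 fold change of 0.71 (edgeR adjusted p = 0.0117), with 7.25, 7.75 and 7.12 CPM on D3 and 9.67, 12.7 and 10.4 CPM on D7.

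opn1sw2 showed how far the c libraries could weigh. Its c libraries were at 772, 828, 525, 14.5 and 75.1 CPM on D3 to D7, while its a libraries were at 147, 496, 789, 843 and 462 CPM. With all libraries its log2 fold change from D3 to D7 was 0.01 (edgeR adjusted p = 0.997), and without the c libraries it was 1.84 (edgeR adjusted p = 1.51e-05). The targeted gene, cdkn1a, was at 5.14, 6.34 and 5.11 CPM in the a, b and c libraries of D3 and at 21.6, 20.05 and 6.33 CPM on D4. It was at 11.8, 8.68 and 3.81 CPM on D5, at 4.54, 4.88 and 15.9 CPM on D6 and at 5.70, 5.41 and 4.72 CPM on D7. Its c library was the lowest of each day but D6, where it was the highest.

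Lists of 8 pathways were compared between crispants and WT for the genes that the rule had not chosen. Listed names without a single match among the symbols were left out (7 of 10 heat shock names matched), so a listed gene under another symbol could be a member. None of the 74 list genes tested is a member under the symbols of the table. edgeR called 1 of them over all 10 libraries, the p53 target pmaip1, a pro-apoptotic BH3-only gene (log2 fold change -0.76, edgeR adjusted p = 0.0145), lower in crispants. This call was lost when crispant 1, 2 or 3 was left out, although pmaip1 was at 40.01 to 45.9 CPM in WT and at 23.3 to 30.4 CPM in crispants, with no overlap. In that test 0.168% of all 23222 genes were called, 0.0129% higher and 0.155% lower. The G1/S list holds the cyclins D and E, cdk2, pcna and the mcm genes. It also holds the edited gene cdkn1a (ratio 0.46) and other genes that restrain entry into DNA synthesis. These are cdkn1ca (1.16), cdkn2c (0.91) and rb1 (0.89). The list mixes both kinds and had a median CPM ratio of 0.98, with 5 of 14 genes above 1. Its median was 0.93 among the first-set libraries, with 5 of 14 above 1, beside 47.3% of all genes at or above 1 CPM. Among those of the second set it was 1.14, with 10 of 14 above 1, beside 49.4% of all genes. The p53, osteoblast, osteoclast and interferon lists had median ratios of 1.01, 1.06, 0.87 and 1.203. In the first set these were 1.08, 0.92, 0.99 and 1.03, and in the second 0.89, 1.14, 0.92 and 1.05.

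Genes of the circadian clock differed in level between the groups, and between the sets of WT libraries, without passing the adjusted test in the fit that leaves out the set. Their median CPM ratio was 0.40 over 11 genes, 0.34 and 0.80 in the first and second set. Of the 11, 7 had an unadjusted p below 0.05 in that fit and 0 an adjusted one. With the set as a block edgeR called 9 of the 11, all lower in crispants. The block fit called 5.84% of all genes, 4.09% of them lower. nr1d1, a repressor of the clock, was at 389, 393 and 380 CPM in WT 1 to 3 and at 80.2, 80.5 and 84.2 CPM in crispants 1 to 3, and cry5 was at 88.7, 88.4 and 86.8 CPM and then at 8.18, 9.17 and 9.96 CPM. In the second set nr1d1 was at 36.1 and 37.3 CPM in WT and at 22.6 and 20.9 CPM in crispants, and cry5 at 9.01 and 9.71 CPM and at 8.33 and 5.97 CPM. The glucocorticoid list, with fkbp5, tsc22d3 and klf9, had a median ratio of 0.73, 0.90 among the first-set libraries and 0.70 among those of the second. In the block fit 4 of its 7 genes were called, all lower in crispants: fkbp5, tsc22d3, pck1 and tat. klf9 and the receptor gene nr3c1 were not called. The part of the clock or of glucocorticoid signalling in the ratios of the members was not tested, and the time of collection is not given in the labels.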

How the data were processed

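The submitters' processing notes name Trim Galore, STAR (2.7.8), HTSeq (0.13.5) and the build GRCz11, from which the authors deposited raw counts for 32520 Ensembl genes in 1 table per experiment. The annotation release and the strand setting are not given in the sources used here, so overlapping genes and near-identical copies are uncertain. Symbols came from a table that matched 29201 identifiers. CPM used column totals. Differences were tested in edgeR 4.0.16 under R 4.3.3 (glmQLFit and glmQLFTest after filterByExpr and TMM, adjusted p below 0.05), in a five-group model of the 15 DEX libraries and a two-group model of the WT and crispant libraries. The code was also run on simulated counts. These held neither the sets nor the differences of the c libraries, so that run says nothing about the calls on these data. The lowest chi-square per gene between libraries of a group was 4.39, so none is a second copy of another. The members, role groups and lists were chosen with earlier results of these data known. Named genes were members with a symbol: the 12 highest ratios, the 8 highest levels, the 6 largest changes from D3 to D7 in each direction, the 3 nearest above the ratio minimum and any in a list fixed at the start. Members given as examples of a role were chosen after their values were seen. Alternatives were DESeq2 1.42.0, other scalings, filters and rule minimums, the replicate block, each set alone and each library left out. Promoter sequences were not analysed here.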

Additional observations from a re-analysis of the deposited data

Results flagged for a closer look

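Among the 33 members named by rule, 5 of 66 groups of 5 libraries held a library whose distance to its nearest neighbour was most of the range of its group (Dixon's 95% critical value), and chance alone gives about 1 in 20. In each case it was a crispant library above the other 4. The members were chosen on these same values by a rule that leaves out genes with 1 low crispant library and admits those with 1 high one, so neither the number nor the direction of these cases can be read against chance. Crispant 3 was the highest for bmb, at 1.846 CPM against 1.25 to 1.39, for si:ch211-119d14.2, at 2.737 CPM against 1.66 to 1.94, and for acy3.1, at 7.023 CPM against 5.35 to 5.77. Crispant 5 was the highest for CCNB1, at 12.75 CPM against 5.90 to 7.44, and for RRM2, at 31.24 CPM against 18.1 to 19.0. By CPM, crispant 5 was also the highest crispant in 9 of the 13 mitotic members and in 42 of the 53 genes of the mitosis list, beside 41 of all 155 members.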

How the results depend on the processing

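Limits first. With low levels and narrow gaps, membership depended on which libraries were at hand, and it is tied to 2 sets with unlike differences. The number of members was 149 with TMM scaling (135 shared with the 155), 165 with DESeq2 size factors (138 shared) and 202 with no minimum level. It was 83 at a mean of at least 5 CPM, 87 at a ratio of at least 1.5, 280 at any ratio above 1, 1944 in the first set alone (138 shared), 1489 in the second set alone (93 shared) and 81 with a ratio of at least 1.3 in both sets, an alternative added after seeing the data. A set alone has fewer libraries to separate, so its count is not comparable with the 155. Leaving out 1 library gave 182 (without crispant 3) to 308 (without WT 5) members, since fewer libraries must be separated, of which at least 145 were shared. It was 234 without WT 4, 285 without crispant 4 and 249 without crispant 5.

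Calls from D3 to D7 numbered 60 with DESeq2, 56 with RLE factors and 48 with no filter, 27 and 28 among members of at least 5 CPM or a ratio of at least 1.5, and 84 with the a and b libraries alone (added after seeing the data, 51 shared with the 55). Leaving out a library gave 35 (without the b library of D3) to 61. Calls on any day, 40 in all, numbered 60 with DESeq2, 81 with the a and b libraries alone, 19 and 22 among members of at least 5 CPM or a ratio of at least 1.5, and 27 to 45 with a library left out. From D3 to D4 there were 5 calls with DESeq2 and 0 to 4 with a library left out (4 without the c library of D3), and from D4 to D5 3 with DESeq2 and 0 with a library left out. From D5 to D6 and from D6 to D7 there were 0 in each setting run. List genes called between crispants and WT numbered 6 with DESeq2, 16 with the set as a block (9 of them circadian, 4 glucocorticoid, then cdkn1a, pmaip1 and dnajb1b) and 0 to 4 with a library left out. With that block 1.75% of all genes were higher and 4.09% lower. The cause of these differences was not tested. Shares of all genes are not given for each of these settings, so the counts show only how far the calls depended on the setting.

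For the DEX letters, the deviations of same-letter libraries from their day means had a mean correlation of 0.422 over 30 pairs and a lowest of 0.07, and 6 of 15 libraries correlated best with their own letter, so the letters are not used as pairs, although the c libraries stand apart. With the letter as a replicate block there were 67 calls from D3 to D7, 65 on any day, 2 from D3 to D4, 1 from D4 to D5 and 0 in the later steps. The shares of all genes in this block fit are not given here. No paired analysis was possible for crispants against WT because the crispant columns carry no replicate number of their own. Over the 30 named members tested, the log2 fold change from D3 to D7 kept its side of the threshold in 556 of the refits, passed it newly in 16, lost it in 28 and reversed in 0 of those called. With the replicate block RRM2 passed newly, at -1.96.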
